A study of Mus musculus with 16 samples.

Results

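A list of 40 genes of DNA replication and mitosis was followed in macrophages from mouse adipose tissue. The list was applied by symbol to the gene table of the array, each gene being read from its probe set of highest mean, and 39 of the 40 had a probe set assigned to 1 gene, out of 17097 genes measured in all. Ccnb1 was not analysed here. By role, the 39 genes comprise 5 for cyclins and Cdk1, 9 for origin licensing and the replication fork, 3 for nucleotide supply, 2 general proliferation markers, 3 for the centromere and kinetochore, 4 for the spindle checkpoint and anaphase promotion, 5 for mitotic kinases and the chromosomal passenger complex, and 8 for spindle motors, spindle assembly and cytokinesis.

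The samples were 16 pools of cells from mice aged 19 to 21 weeks, 4 pools in each of 4 groups, each hybridised to 1 mouse Affymetrix array. WT stands for Sucnr1 flox/flox mice, whose floxed alleles are intact, and KO for LysM-Sucnr1-/- mice, which carry Cre recombinase driven by the lysozyme M promoter active in myeloid cells, to delete the succinate receptor Sucnr1 there. Only the knockout carries Cre, so an effect of Cre and of the lost receptor cannot be told apart. SAT is subcutaneous and VAT visceral adipose tissue, and the 4 groups are WT SAT, WT VAT, KO SAT and KO VAT. The sample names word the genotype as a treatment, calling wild-type pools untreated, and give no agent. The source field adds NCD without saying what it stands for. They describe selection with CD11b beads in one place and F4/80+ cells in another, and RNA from 300000 cells amplified through 24 cycles. Every group has 2 pools labelled day 1 and 2 labelled day 2. They do not say that the pools hold different animals, so p-values measure the spread between these pools.

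Values are on the log2 scale of the deposited table, on which 1 unit is a doubling. As a yardstick for probe sets without specific signal, 41 olfactory receptor genes were used: the 95th percentile of their means was 4.78 and their median 4.06. Several checks went against the labels or set arrays apart. Sucnr1 read 3.35 to 3.65 on all 16 arrays, at the level of background, so the deletion could not be checked. Lyz2, the lysozyme M gene, was lower in KO than in WT in SAT (-0.64, limma adjusted p = 0.00525) and in VAT (-0.58, limma adjusted p = 0.0156). It leaned lower in VAT than in SAT in both genotypes, without passing (WT -0.55, limma adjusted p = 0.0516, and KO -0.49, limma adjusted p = 0.072). The depot markers did not follow the labels across genotypes: Akr1c18 read 8.25 to 8.99 in WT SAT and 9.99 to 10.31 in KO VAT, but 4.75 to 5.14 in WT VAT and 4.99 to 5.47 in KO SAT. Emx2 had the same pattern, and Svs4, a seminal vesicle secretion gene, read 11.04 to 11.78 in KO SAT. For this reason the depot names of the knockout are used below only as labelled, and each knockout group was also set against the wild-type group of the other depot label. Finally, the spread of an array, taken as the interquartile range of its values, was 2.12 to 2.29 in WT SAT, 2.01 to 2.54 in WT VAT, 2.37 to 2.63 in KO SAT and 2.36 to 2.62 in KO VAT. WT VAT held the least alike arrays, with correlations from 0.942 to 0.990 between pools.

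As background, cells in G1 load the MCM2-7 helicase onto replication origins, then switch on cyclin E and cyclin A kinases that start DNA synthesis, and later the cyclin B kinase, Cdk1, that drives mitosis. E2F factors switch on most S phase genes through short sites near the start of transcription, whereas mitotic genes are held down in resting cells through elements called CHR, often next to CCAAT boxes that bind the factor NF-Y. Tissue macrophages can renew themselves by dividing locally, and macrophages of obese fat have been described as doing so.

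Promoter windows of 6 genes are shown because the results below turn on them: Mcm2, Mcm3 and Mcm5 on the KO VAT arrays, and Rrm2, Cdk1 and Ube2c on the KO SAT arrays. No window is shown for Mcm4, as no RefSeq window was at hand for it. Each window runs from 250 bases before to 50 bases after the RefSeq start of the gene (RefSeq, GRCm38.p6), 5′ to 3′ along the gene, and capitals mark matches to an E2F motif (TTCCCGC or TTGGCGC or TTCGCGC or TTGCCGC) or a CHR motif (TTTGAA or TTCGAA) on either strand. Overlapping matches of 1 motif were counted once.
Mcm2 (chr6:88898731-88899030, minus strand): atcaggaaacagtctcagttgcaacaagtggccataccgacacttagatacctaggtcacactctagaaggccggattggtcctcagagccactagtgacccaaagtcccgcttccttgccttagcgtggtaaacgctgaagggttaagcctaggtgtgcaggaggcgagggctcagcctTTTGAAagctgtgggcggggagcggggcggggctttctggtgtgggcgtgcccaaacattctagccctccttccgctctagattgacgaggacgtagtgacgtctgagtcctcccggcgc
Mcm3 (chr1:20820263-20820562, minus strand): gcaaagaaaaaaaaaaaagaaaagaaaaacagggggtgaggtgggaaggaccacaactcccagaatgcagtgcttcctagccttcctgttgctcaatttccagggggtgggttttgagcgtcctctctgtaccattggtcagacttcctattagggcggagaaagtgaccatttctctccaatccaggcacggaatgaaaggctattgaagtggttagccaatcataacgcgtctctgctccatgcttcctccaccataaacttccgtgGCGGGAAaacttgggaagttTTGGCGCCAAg
Mcm5 (chr8:75109259-75109558, plus strand): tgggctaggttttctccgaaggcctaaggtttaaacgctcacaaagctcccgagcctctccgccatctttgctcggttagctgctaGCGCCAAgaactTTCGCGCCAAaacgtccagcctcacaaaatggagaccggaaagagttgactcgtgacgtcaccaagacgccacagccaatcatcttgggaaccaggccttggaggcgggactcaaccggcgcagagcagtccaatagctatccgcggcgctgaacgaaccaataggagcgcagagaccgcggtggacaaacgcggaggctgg
Rrm2 (chr12:24708004-24708303, plus strand): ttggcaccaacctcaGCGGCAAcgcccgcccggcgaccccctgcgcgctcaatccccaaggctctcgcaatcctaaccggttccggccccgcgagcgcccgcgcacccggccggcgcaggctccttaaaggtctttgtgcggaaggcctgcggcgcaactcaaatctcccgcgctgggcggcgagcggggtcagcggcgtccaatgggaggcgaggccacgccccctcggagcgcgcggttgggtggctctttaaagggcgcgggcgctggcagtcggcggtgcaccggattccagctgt
Cdk1 (chr10:69352863-69353162, minus strand): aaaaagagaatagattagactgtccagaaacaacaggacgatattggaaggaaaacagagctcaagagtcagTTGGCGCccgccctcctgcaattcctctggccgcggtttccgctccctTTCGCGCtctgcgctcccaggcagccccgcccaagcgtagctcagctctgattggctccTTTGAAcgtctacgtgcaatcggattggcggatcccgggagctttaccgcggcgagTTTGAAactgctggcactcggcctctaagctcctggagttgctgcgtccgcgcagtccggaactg
Ube2c (chr2:164769679-164769978, plus strand): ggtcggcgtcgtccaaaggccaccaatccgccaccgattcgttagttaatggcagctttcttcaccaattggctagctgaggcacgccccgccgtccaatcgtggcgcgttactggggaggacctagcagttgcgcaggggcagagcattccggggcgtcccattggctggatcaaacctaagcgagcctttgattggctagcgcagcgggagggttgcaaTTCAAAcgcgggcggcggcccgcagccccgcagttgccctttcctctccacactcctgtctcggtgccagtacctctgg

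The windows differ in what they hold. Mcm3 and Mcm5 each have 2 E2F matches and 0 CHR matches, Mcm2 has 0 E2F and 1 CHR match, Rrm2 has 1 E2F match, Cdk1 has 2 of each, and Ube2c has 1 CHR match and 5 CCAAT boxes. RefSeq windows were at hand for 33 of the 39 genes. Among their 36 windows, 36.1% held an E2F match, against 9.57% of all 32851 windows of the same 300 bases in the mouse table. A CHR match was in 63.9% of the 36 windows against 19.2% of all, and CCAAT, in either orientation, was in 86.1% against 37.4%. These are matches of letters only, and neither a bound factor nor regulation was measured here.

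In terms of level, 25 of the 39 genes had a mean above 4.78 in all 4 groups. Cenpf, Cdc20, Birc5 and Cdca8 were above it in some groups. The other 10, Ccnb2, Ccne2, Cdc6, Cdc45, Top2a, Bub1, Kif11, Kif23, Nusap1 and Ect2, were above it in none, so the array gives little information on them. Mki67, which encodes the proliferation antigen Ki-67, read 4.65 to 5.48 over the 16 arrays and Top2a, the topoisomerase that disentangles replicated DNA, 4.01 to 4.46. Both general proliferation markers thus lay at or near background in every group, and neither passed the test in any of the 9 comparisons. Their log2 changes were -0.20 ± 0.15 (standard error, SE) for Mki67 and -0.20 ± 0.09 for Top2a in KO SAT against WT SAT, and 0.07 ± 0.15 and 0.00 ± 0.09 in KO VAT against WT VAT.

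In KO VAT, 5 genes of the replicative helicase, Mcm2 to Mcm6, had their highest group mean, whereas Mcm7 had its highest in WT SAT (6.82 against 6.57 in KO VAT). The first question is what the loss of Sucnr1 in myeloid cells changed in visceral fat as labelled. In KO VAT against WT VAT, 4 of the 39 genes rose and 0 fell (limma over all genes and 16 arrays, day as a term, Benjamini-Hochberg adjusted p under 0.05, two-sided). All 4 encode subunits of the MCM2-7 helicase. Over all genes tested, 15.9% were called, 10.2% higher and 5.76% lower. The 4 genes are 10.3% of the 39, close to the 10.2%, so the count itself is not a result about cell cycle genes. Their median change was -0.05, as was that of all genes. The count of 4 rises and 0 falls depended on the WT VAT arrays: it was 5 and 2 without WT VAT pool 3, and 4 and 2 without WT VAT pool 4. Within day 1 alone 6 genes rose and 7 fell, and within day 2 alone 2 rose and 0 fell, with 4 and 1 of the MCM calls kept. In such bulk samples, fewer cells of a type and less RNA per cell cannot be told apart.

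Mcm2 encodes a subunit that is also a histone chaperone at the fork. It read 7.39, 7.31, 7.55 and 7.26 in KO VAT pools 1 to 4, and 5.86, 5.26, 6.80 and 6.36 in WT VAT. All 4 KO VAT pools lay above every pool of the other 3 groups, the next highest being 6.96 in KO SAT. The KO VAT minus WT VAT change was 1.31 ± 0.18, a 2.48-fold rise (limma adjusted p = 0.000476). Mcm4 read 6.57, 6.93, 6.71 and 6.55 in KO VAT and 5.57, 5.75, 5.68 and 5.94 in WT VAT. It had the smallest SE of the 4, and no WT SAT or KO SAT pool was above 6.06. It rose by 0.95 ± 0.11 or 1.94-fold (limma adjusted p = 0.000117). Mcm5 read 8.40, 8.04, 8.37 and 8.17 in KO VAT and 6.61, 6.89, 7.53 and 7.52 in WT VAT. Its groups did not overlap in this comparison, but WT SAT reached 8.04, level with the lowest KO VAT pool. The change was 1.11 ± 0.20, or 2.16-fold (limma adjusted p = 0.00267). Mcm3 read 7.57, 7.23, 7.55 and 7.43 in KO VAT and 6.31, 6.43, 7.23 and 7.19 in WT VAT, so that the groups touched at 7.23. It rose by 0.65 ± 0.17 or 1.57-fold (limma adjusted p = 0.0187). The remaining subunits did not pass: Mcm6 differed by 0.27 ± 0.09 (limma adjusted p = 0.0607) and Mcm7 by 0.09 ± 0.16.

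**Figure D1:**
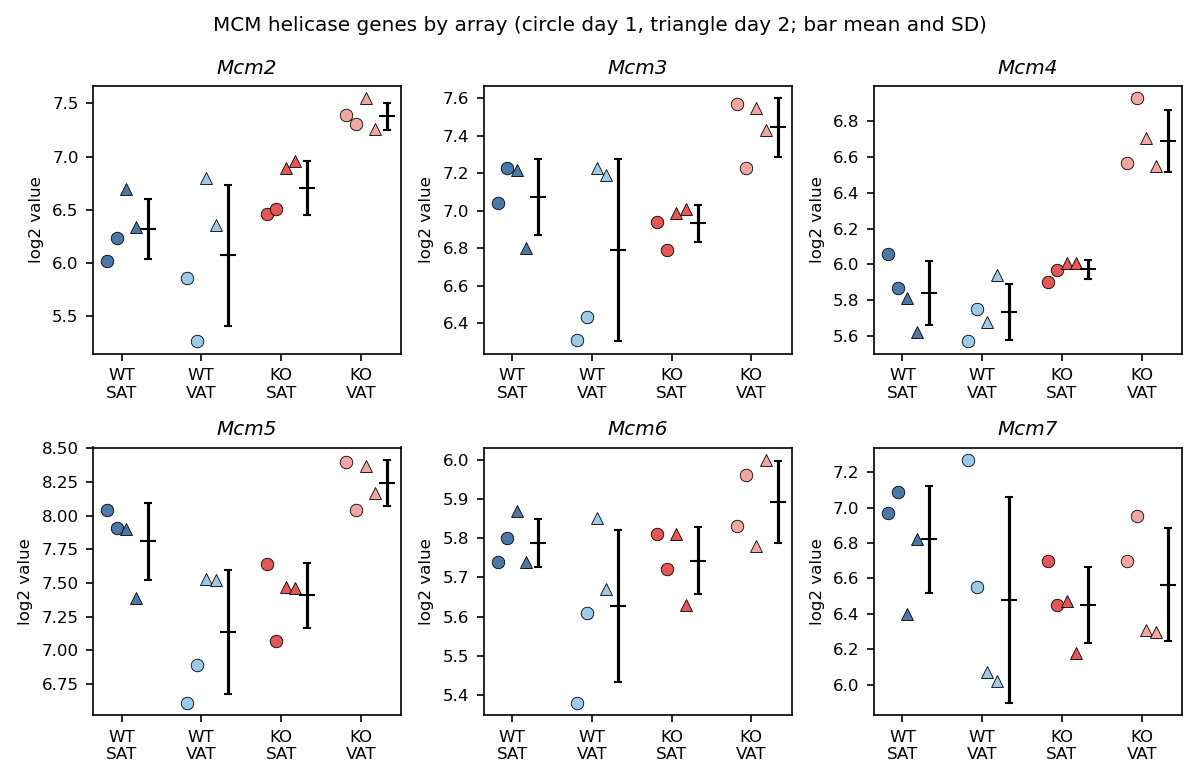
Log2 values (y axis) of Mcm2 to Mcm7 on each of the 16 arrays by group, with circles for day 1, triangles for day 2 and bars for the group mean and SD (n = 4). For Mcm2 and Mcm4 the 4 KO VAT arrays lie above all others, whereas Mcm7 has no such order.

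WT VAT split by day for 3 of these genes, and this moves with the size of the change. Its day 1 pools 1 and 2 read lower than its day 2 pools 3 and 4 for Mcm2, Mcm3 and Mcm5, and those day 1 arrays had spreads of 2.01 and 2.15 against 2.50 and 2.54 on day 2. Within day 1 the changes were 1.79 for Mcm2, 1.03 for Mcm3, 1.09 for Mcm4 and 1.48 for Mcm5, and all passed. Within day 2 they were 0.82, 0.28, 0.82 and 0.75, and only Mcm4 passed (limma adjusted p = 0.0665, 0.417, 0.02 and 0.0647). With array spread as a term in the model, Mcm2 (1.08), Mcm4 (0.82) and Mcm5 (0.64) passed and Mcm3 (0.25, limma adjusted p = 0.0741) did not, while Cdca8, encoding the passenger protein borealin, passed at 0.60 where it had been 0.43. Mcm3 also lost its call without WT VAT pool 1 (0.52), WT VAT pool 2 (0.57) or KO VAT pool 1 (0.56), while the other 3 genes kept theirs in all 16 fits that left out 1 array. Markers of cell types differed between these groups too. The 12 macrophage markers averaged 7.75 to 8.90 in WT VAT and 7.67 to 8.37 in KO VAT, and 3 fell and 0 rose. Skeletal muscle genes averaged 4.71 to 5.07 in WT VAT and 5.53 to 6.10 in KO VAT, and 5 of 8 rose, as did 4 of 10 epithelial genes, whereas 0 of 9 T cell and 0 of 9 B cell markers were called. The part of these in the result was not tested.

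A second probe set was at hand for 4 of the MCM genes. That of Mcm2, with a mean of 5.26, differed by 0.46 (limma over all probe sets, adjusted p = 0.00355). That of Mcm3 differed by 0.11, that of Mcm7 by 0.24, and neither passed. The second probe set of Mcm5 read 3.63 to 4.11, under the background level, and gives no information. Thus the rise of Mcm2 was seen in both of its probe sets, whereas that of Mcm3 was seen in 1 of them.

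Among the other genes of the replication fork, Pcna, the sliding clamp of DNA polymerase, read 9.64 to 9.97 in KO VAT and 8.88 to 10.01 in WT VAT, and the groups overlapped. Its change was 0.23 ± 0.15 (limma adjusted p = 0.274). Cdc6, which loads the helicase, and Cdc45, which activates it, were under background in every group, with changes of 0.16 ± 0.07 and -0.28. Of the ribonucleotide reductase genes, Rrm1 differed by -0.08 ± 0.09 and Rrm2 by -0.04 ± 0.10, and neither passed. A second probe set of Rrm2, with a mean of 4.51 below background, read 4.77 to 5.36 in KO VAT and 4.25 to 4.38 in WT VAT, a difference of 0.65 (limma over all probe sets, adjusted p = 0.00389). The probe sets of Rrm2 therefore disagree in this comparison.

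Genes outside the 40 that belong to the same machinery were counted from further lists. Of 26 other replication and S phase genes, 5 rose and 0 fell in KO VAT against WT VAT, with a median of 0.13. Cdt1, the factor that loads MCM with Cdc6, rose by 0.98 ± 0.14 (limma adjusted p = 0.000459). Slbp, which binds histone mRNA, rose by 0.70, Lig1, the DNA ligase of the lagging strand, by 0.69, and Pola1, a subunit of DNA polymerase alpha, by 0.40. Of 37 other mitosis genes 4 rose and 0 fell, with a median of -0.06. They include Cks2 (1.66 ± 0.28) and Cks1b (1.24 ± 0.15), which encode small partners of the cyclin-dependent kinases, and Smc4 (1.03), a condensin subunit. Of 12 genes of G1 cyclins, kinases and E2F factors, Ccnd1, encoding cyclin D1, and Tfdp1, the E2F partner, rose by 0.96 each and 0 fell. Of 19 cell cycle inhibitors and quiescence genes, 3 rose, among them Cdkn1b, encoding the inhibitor p27, at 0.65 ± 0.16, and 1 fell, Fzr1 at -0.29. These lists were chosen with earlier results known, and their counts stand beside the 10.2% of all genes that rose and 5.76% that fell. Against WT SAT, Cdt1, Slbp, Pola1, Cks2, Cks1b and Tfdp1 were also called as higher in KO VAT, whereas Lig1, Smc4, Ccnd1 and Cdkn1b were not called. Between the wild-type depots, Smc4 (-0.73), Ccnd1 (-0.65) and Cdkn1b (-0.78) were lower in WT VAT than in WT SAT.

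In subcutaneous fat as labelled, every cell cycle gene that passed was lower in the knockout, with members from most roles, among them Rrm2, Cdk1, Ccne1, Ube2c and Hmmr. In KO SAT against WT SAT, 13 of the 39 genes fell and 0 rose, with a median change of -0.20 against -0.05 over all genes. Over all genes tested 36.7% were called, as 20.0% that fell and 16.7% that rose, so the 33.3% of cell cycle genes that fell stands beside a wide background. The 13 were 2 of 5 in the cyclin and Cdk1 group, 1 of 9 in origin licensing and the fork, 1 of 3 in nucleotide supply, 3 of 3 centromere genes, 2 of 4 in checkpoint and anaphase promotion, 1 of 5 mitotic kinases and passengers, and 3 of 8 in spindle and cytokinesis. No MCM gene was among them. Without WT SAT pool 3 the count was 8, without WT SAT pool 4 it was 7, without KO SAT pool 1 it was 5 and without KO SAT pool 4 it was 6.

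Olfactory receptor genes moved the same way on the same arrays. In this comparison 19 of the 41 fell and 1 rose, with a median of -0.32, and the KO SAT arrays had wider spreads (2.37 to 2.63) than the WT SAT arrays (2.12 to 2.29), without overlap. Array spread and genotype therefore cannot be told apart between these groups, and the part of either in the falls below was not tested. With spread as a term, which draws on all 4 groups, Rrm2 alone of the 13 kept its call, and 3 of the 39 genes passed in all. Without the 4 arrays of smallest spread (WT SAT pools 1 and 4, WT VAT pools 1 and 2), an alternative chosen after seeing the data, Cenpe (-0.20) and Cdc20 (-0.36) lost their calls and the other 11 kept theirs.

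Rrm2, the small subunit of ribonucleotide reductase that is made in S phase, had the smallest p. It read 5.18, 5.39, 5.05 and 4.93 in KO SAT and 5.81, 6.09, 5.57 and 5.82 in WT SAT, and every KO SAT pool was below every pool of the other 3 groups. The change was -0.68 ± 0.10, a 1.61-fold fall (limma adjusted p = 0.000503), and it was -0.77 with array spread as a term (limma adjusted p = 0.00417). It fell within day 1 (-0.66) and within day 2 (-0.70), and its other probe set fell too, by 0.34 (limma over all probe sets, adjusted p = 0.0404).

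Cdk1, the kinase of mitotic entry, read 4.83, 4.94, 4.91 and 4.76 in KO SAT, close to background, and 5.92, 5.38, 5.33 and 5.76 in WT SAT. The groups did not overlap, and the change was -0.74 ± 0.13 or 1.67-fold (limma adjusted p = 0.0016), with -0.37 and an adjusted p of 0.157 under the limma fit with the spread term. Ccne1, encoding cyclin E1 of the G1 to S transition, read 5.99, 6.03, 5.58 and 5.92 in KO SAT and 6.54, 6.63, 6.27 and 6.68 in WT SAT. It fell by 0.65 ± 0.14 or 1.57-fold (limma adjusted p = 0.0052), without overlap, and was -0.17 with the spread term. Ube2c, the ubiquitin-conjugating enzyme that works with the anaphase promoting complex, read 6.0, 6.23, 6.10 and 5.77 in KO SAT and 6.93, 6.54, 6.47 and 6.78 in WT SAT. It too had no overlap and fell by 0.66 ± 0.15 or 1.58-fold (limma adjusted p = 0.00644), with -0.16 under the spread term. Hmmr, a spindle protein and hyaluronan receptor, read 4.82, 5.04, 4.77 and 4.92 in KO SAT and 5.29, 5.24, 5.80 and 5.81 in WT SAT. It fell by 0.65 ± 0.16 (limma adjusted p = 0.00937) and was -0.04 with the spread term. These 4 genes and Rrm2 kept their calls in all 16 fits that left out 1 array. Within day 1 the falls of Cdk1 (-0.76), Ccne1 (-0.58), Ube2c (-0.62) and Hmmr (-0.33) did not pass, and within day 2 those of -0.71, -0.73, -0.69 and -0.96 did.

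**Figure D2:**
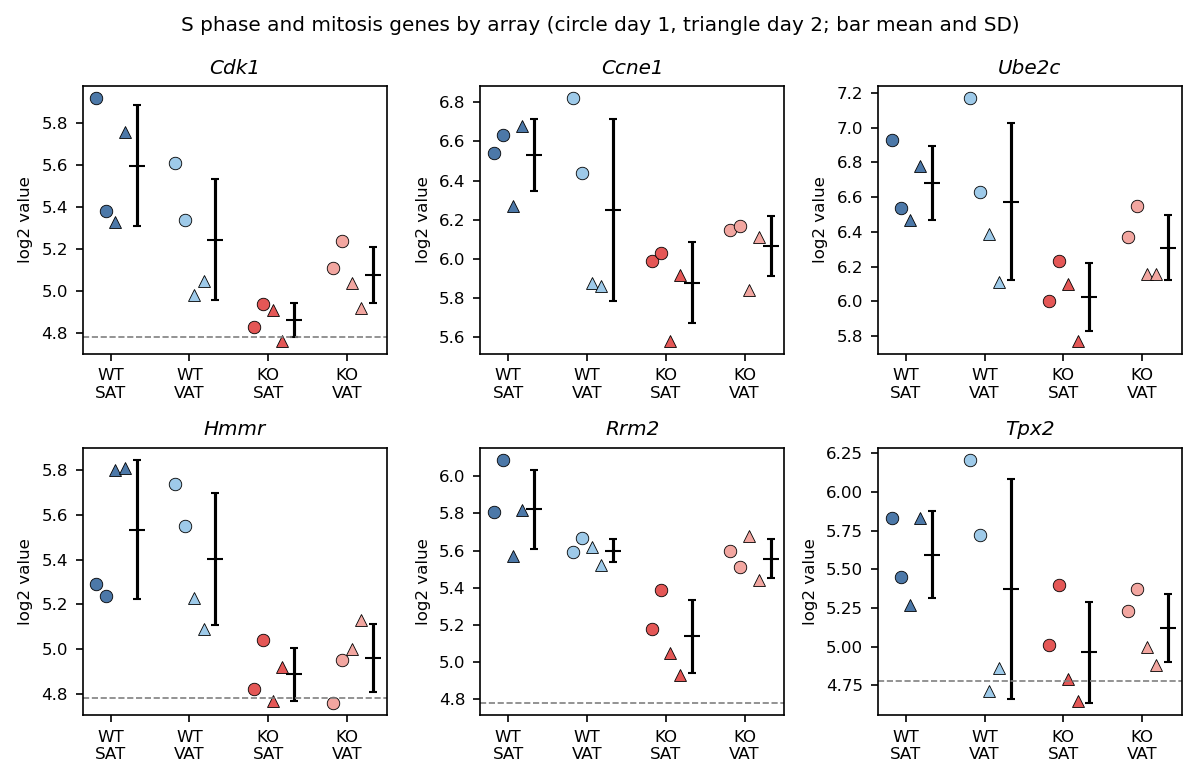
Log2 values (y axis) of 6 S phase and mitosis genes on each of the 16 arrays by group, with circles for day 1, triangles for day 2, bars for the mean and SD (n = 4), and a dashed line at the background level of 4.78 where it falls in the panel. KO SAT is the lowest group for each of the 6 genes by mean, and Cdk1, Hmmr and Tpx2 come down to the dashed line there.

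The other 8 falls were smaller or less steady, and 3 of the 8 genes were not above the background level of 4.78 in KO SAT: Cenpf (4.74 ± 0.25, SD, n = 4), Cdc20 (4.69 ± 0.21) and Cdc45 (4.21 ± 0.06). The size of a change down to background is uncertain. Tpx2, which activates Aurora A at the spindle, fell by 0.63 ± 0.20 (limma adjusted p = 0.0269) between 5.27 to 5.83 in WT SAT and 4.65 to 5.40 in KO SAT, and the ranges overlapped. It lost its call without WT SAT pool 4 (-0.45), KO SAT pool 1 (-0.55) or KO SAT pool 4 (-0.62). Cenpf, a kinetochore protein, fell by 0.50 ± 0.14 (limma adjusted p = 0.0152) and lost its call without KO SAT pool 1 (-0.43). Aurkb, the kinase of the chromosomal passenger complex, fell by 0.47 ± 0.15 (limma adjusted p = 0.027) and lost its call without WT SAT pool 4 (-0.36), KO SAT pool 1 (-0.45) or KO SAT pool 4 (-0.41). Cenpa, the centromeric histone, fell by 0.39 ± 0.12 (limma adjusted p = 0.0255) and lost its call without WT SAT pools 3 (-0.32) or 4 (-0.33) or KO SAT pools 1 (-0.40), 3 (-0.37) or 4 (-0.39). For each of these 4 genes a single pool thus decided the call.

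Cdc20, the activator of the anaphase promoting complex, fell by 0.55 ± 0.19 (limma adjusted p = 0.0401), Prc1, which bundles microtubules at the midzone, by 0.46 ± 0.17 (limma adjusted p = 0.0427), Cenpe, a kinetochore motor, by 0.43 ± 0.16 (limma adjusted p = 0.044), and Cdc45 by 0.42 ± 0.16 (limma adjusted p = 0.0468). Their calls were lost when any of 7 to 12 single arrays was left out. For Cdc20 those were WT SAT pools 1 (-0.49), 3 (-0.54) and 4 (-0.47), KO SAT pools 1 (-0.46), 2 (-0.57) and 4 (-0.51), and KO VAT pool 3 (-0.55). For Prc1 they were WT SAT pools 1, 3 and 4, all 4 KO SAT pools, and KO VAT pools 3 and 4 (-0.51 to -0.37). For Cenpe they were WT SAT pools 1, 3 and 4, all 4 KO SAT pools, and KO VAT pools 1 and 2 (-0.49 to -0.25). For Cdc45, which is below background, they were WT SAT pools 1, 3 and 4, WT VAT pools 2 and 3, all 4 KO SAT pools, and KO VAT pools 1, 2 and 3 (-0.46 to -0.38). With the spread term Cdc45, Cenpe, Cdc20, Tpx2 and Prc1 turned to differences between 0.02 and 0.16, none of which passed.

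**Figure D3:**
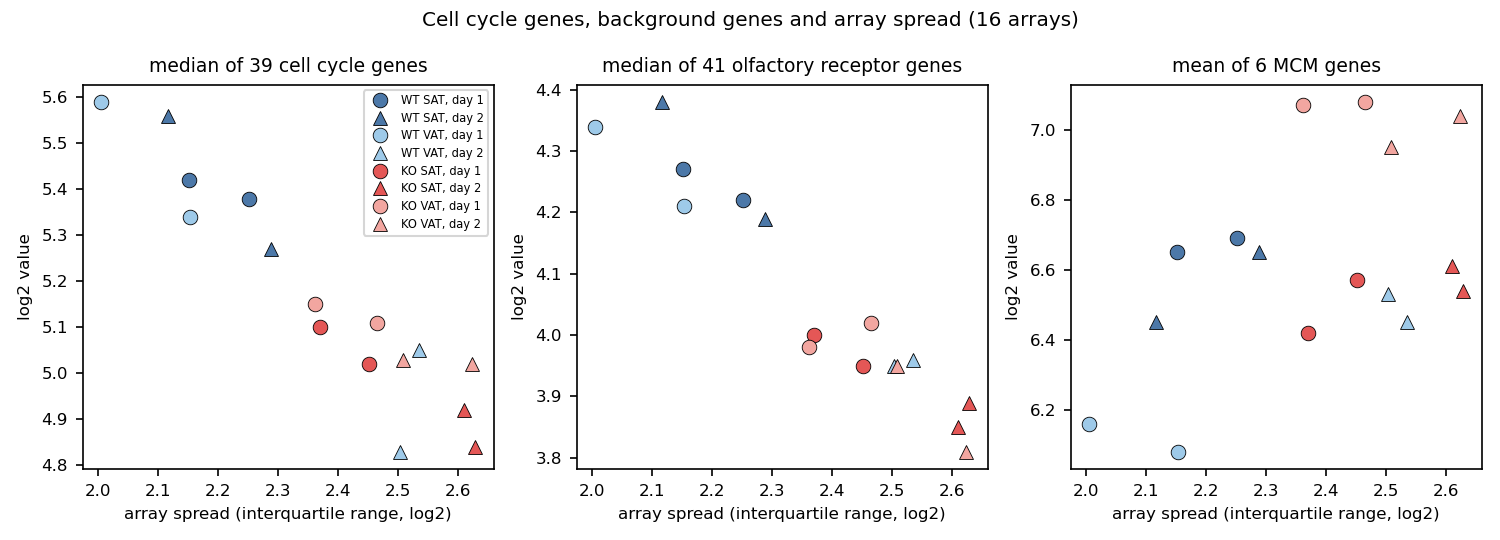
The median of the 39 cell cycle genes, the median of the 41 olfactory receptor genes and the mean of Mcm2 to Mcm7 (y axes, log2 value) against the spread of each of the 16 arrays (x axis, interquartile range of log2 values), by group and day. Both medians are lower on arrays of wider spread, from 5.59 to 4.83 for the cell cycle genes, whereas the MCM mean is highest on the KO VAT arrays, at 6.95 to 7.08.

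The order of the groups and arrays was counted gene by gene. By group mean, WT SAT was highest for 24 of the 39 genes and KO SAT lowest for 20. Within WT VAT, pool 1, the array of smallest spread, was highest for 25 of the 39 genes, and pool 3 was lowest for 19. On single arrays the median of the 39 genes ran from 4.83 in WT VAT pool 3 to 5.59 in WT VAT pool 1. Arrays of 1 group thus covered the whole range seen over the 16 arrays. The MCM mean ran the other way in WT VAT, at 6.16 and 6.08 on day 1 and 6.53 and 6.45 on day 2.

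Other cell types also differed between the SAT groups. The 9 T cell markers averaged 5.95 to 6.35 in WT SAT and 4.99 to 5.23 in KO SAT, and 8 of 9 fell and 1 rose. Of 9 B cell markers 6 fell, with averages of 5.64 to 5.92 against 5.09 to 5.27, and of 6 erythroid genes all 6 fell. Skeletal muscle genes averaged 7.04 to 7.98 in WT SAT and 4.67 to 4.90 in KO SAT, all 8 having fallen, and seminal vesicle genes averaged 4.24 to 5.41 in WT SAT against 9.10 to 9.87 in KO SAT, all 8 having risen. Endothelial genes averaged 5.70 to 5.96 in WT SAT and 6.57 to 6.91 in KO SAT, 6 of 10 having risen. The part of these cells in the lower cell cycle values was not tested. Macrophage markers differed less, with 3 of 12 fallen and averages of 8.51 to 8.97 against 8.24 to 8.82.

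Further cell cycle genes in the same comparison ran both ways. Of 37 other mitosis genes 13 fell and 2 rose, Mybl2, a factor that activates mitotic genes, falling by 0.88 ± 0.21 (limma adjusted p = 0.00844) and Pttg1, encoding securin, rising by 0.59 ± 0.10 (limma adjusted p = 0.0016). Of 26 other replication genes 5 fell, among them Brca1 (-0.68) and Uhrf1 (-0.53), and 3 rose, among them Slbp (0.61). Of 12 G1 genes 3 fell, E2f2 by 0.80, Ccnd1 by 0.45 and E2f1 by 0.38. Of 19 inhibitors and quiescence genes 6 rose and 2 fell. The risen ones include Ccng1 (0.83), Btg2 (0.70) and Cdkn1a, which encodes p21 (0.34). Both the falling mitosis genes and the rising inhibitors stand beside the 20.0% and 16.7% of all genes.

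Within the knockout, the depots as labelled differed in 3 of the 39 genes, all higher in KO VAT than in KO SAT, beside 4.32% of all genes called, 1.92% higher and 2.39% lower. Mcm4 differed by 0.72 ± 0.11 (limma adjusted p = 0.00123), and its KO SAT pools read 5.90, 5.97, 6.01 and 6.01, below the lowest KO VAT pool at 6.55. It kept its call in all 16 fits without 1 array. Mcm5 differed by 0.84 ± 0.20 (limma adjusted p = 0.0242), with KO SAT at 7.64, 7.07, 7.47 and 7.46 and again no overlap. Leaving out KO SAT pool 2 (0.74), 3 (0.83) or 4 (0.83), or else KO VAT pool 1 (0.75) or 3 (0.82), ended its call. Rrm2 differed by 0.42 ± 0.10 (limma adjusted p = 0.0251), without overlap. Its call ended when KO SAT pool 1 (0.41), 3 (0.41) or 4 (0.37) was left out, and likewise for KO VAT pool 1 (0.43), 3 (0.35) or 4 (0.43). Of the 39 genes 1 was called when either of KO SAT pools 3 and 4 or either of KO VAT pools 1 and 3 was left out. Mcm2 (0.67 ± 0.18, limma adjusted p = 0.0526) and Mcm3 (0.51 ± 0.17, limma adjusted p = 0.122) did not pass, but did with array spread as a term, at 0.70 and 0.56. In this pair the olfactory receptor genes had a median of 0.00, with 0 of 41 called, and the spreads overlapped (2.37 to 2.63 and 2.36 to 2.62). Of 37 other mitosis genes, Cks1b was higher in KO VAT (0.92) and Ccnf lower (-0.80), and of 12 G1 genes Ccnd1 was higher (0.76). Ccnf was lower in VAT than in SAT within the wild type as well (-1.05). Of other cell types, 3 of 9 T cell markers and 5 of 8 skeletal muscle genes (median 0.68) rose, and 5 of 12 macrophage markers and 8 of 8 seminal vesicle genes (median -5.38) fell. Their part in the result was not tested.

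Within the wild type, 0 of the 39 genes passed between WT VAT and WT SAT by limma, where 2.84% of all genes did, 1.52% higher and 1.32% lower; at an unadjusted p under 0.05, 1 was higher and 6 were lower. Mcm5, at 7.39 to 8.04 in WT SAT and 6.61 to 7.53 in WT VAT, had the largest difference (-0.68 ± 0.20) and overlapping groups. It passed with the spread term, at -0.92. Leaving out WT VAT pool 1 gave 5 called genes and leaving out WT SAT pool 4 gave 1. Day 2 alone gave 10, and the other counts are with the limits at the end. Of 37 other mitosis genes, Ccnf and Smc4 fell, by 1.05 and 0.73.

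The test of whether the knockout effect differed between the depots as labelled called 3 of the 39 genes, all with a more positive knockout minus wild-type difference in VAT than in SAT, beside 4.22% of all genes called, 2.10% in that direction and 2.12% in the other. The difference was 1.51 ± 0.28 for Mcm5 (limma adjusted p = 0.00466), 0.82 ± 0.15 for Mcm4 (limma adjusted p = 0.00547) and 0.64 ± 0.14 for Rrm2 (limma adjusted p = 0.015). For Mcm5 it combines a rise in VAT with a difference of -0.40 ± 0.20 in SAT that did not pass, and for Rrm2 it reflects the fall in SAT beside -0.04 in VAT. All 3 kept their calls in the 16 fits without 1 array, in which the count was 8 without WT VAT pool 1 and 5 without WT VAT pool 3. Within day 1 alone Mcm4 (1.12) and Mcm5 (2.10) passed and Rrm2 (0.59, limma adjusted p = 0.204) did not. Within day 2 alone Mcm5 (0.92) passed, and Mcm4 (0.52, limma adjusted p = 0.0995) and Rrm2 (0.70, limma adjusted p = 0.0509) did not. Markers of other cells had the same test: 5 of 9 T cell markers (median 1.30), 4 of 9 B cell markers and 8 of 8 skeletal muscle genes (median 2.65) were called in the same direction and 8 of 8 seminal vesicle genes (median -5.30) in the other. Their part in the result was not tested. Rrm2 lost its call without the 4 arrays of smallest spread (0.57, limma adjusted p = 0.064). Mcm2 (0.92, limma adjusted p = 0.0621) and Mcm3 (0.79, limma adjusted p = 0.0801) did not pass. The second probe sets of Mcm2 (0.66), Mcm7 (0.62) and Rrm2 (0.99) passed in the fit over all probe sets.

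**Figure D4:**
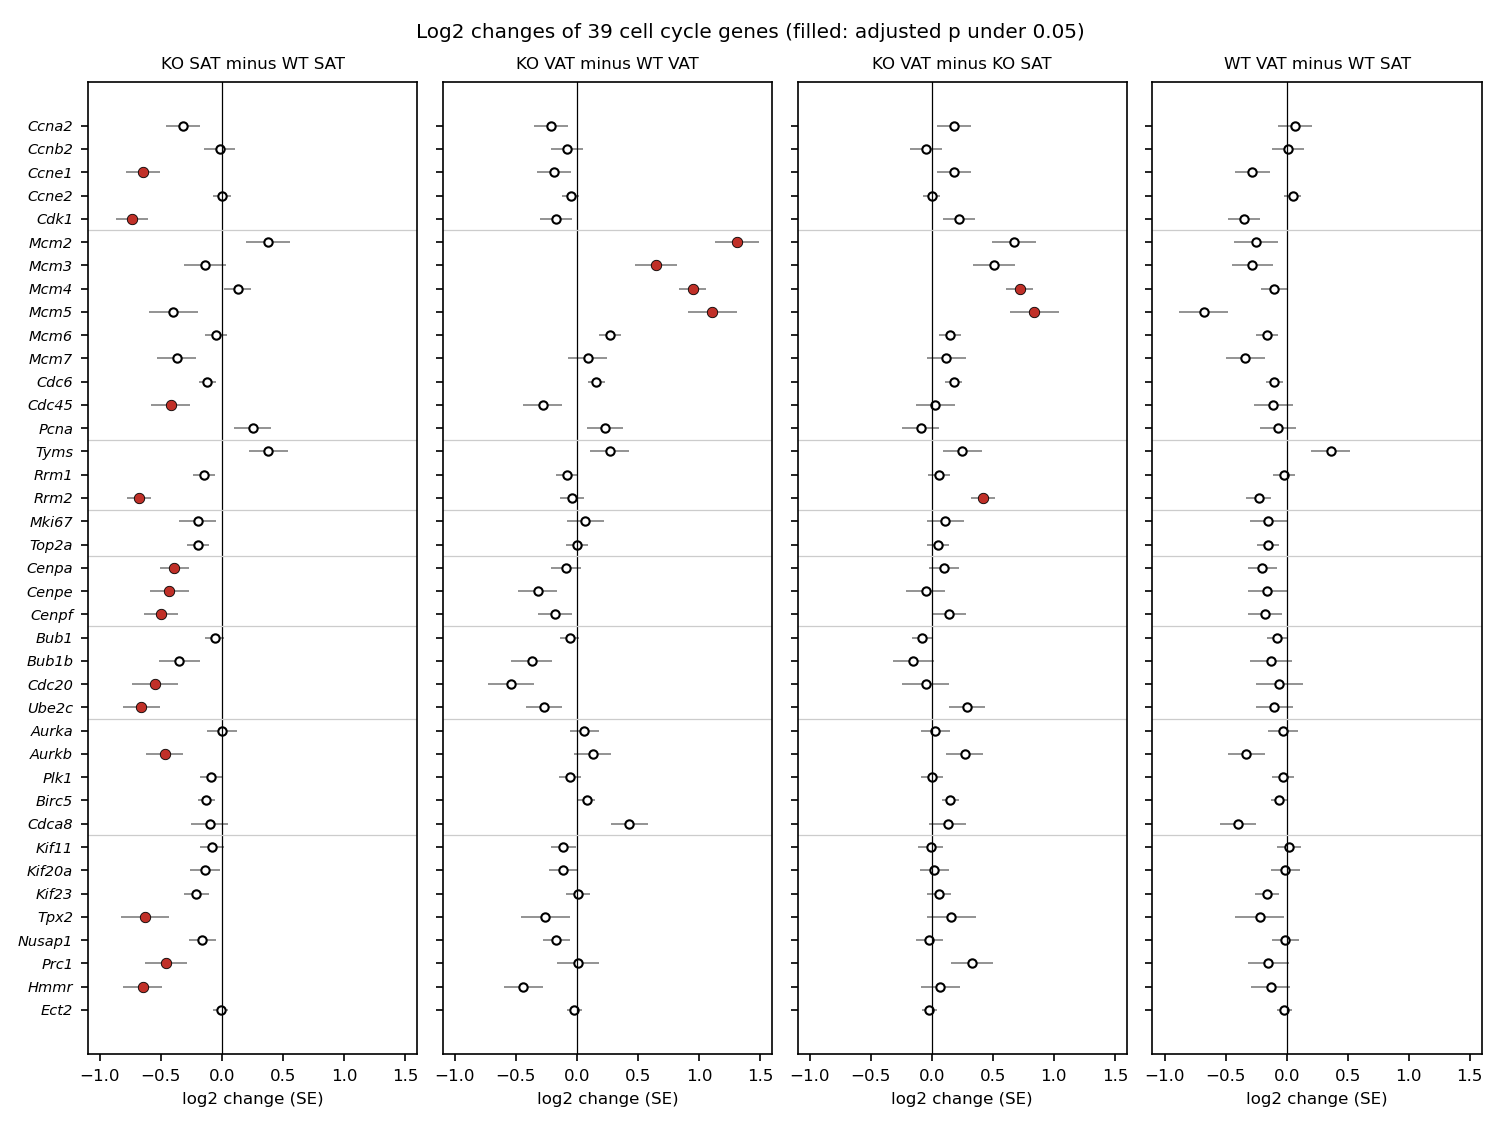
Log2 changes (x axis, bars are standard errors of the limma fit) of the 39 measured cell cycle genes (y axis, ordered by role with grey lines between roles) in 4 comparisons, filled where the adjusted p was under 0.05. The filled points are 13 falls in KO SAT minus WT SAT, the rises of Mcm2 to Mcm5 in KO VAT minus WT VAT, Mcm4, Mcm5 and Rrm2 in KO VAT minus KO SAT, and none in WT VAT minus WT SAT.

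Averaged over the depots, so that the depot labels play no part, 4 genes rose and 13 fell in the knockout, where 51.7% of all genes were called, 22.5% higher and 29.2% lower. These are 10.3% and 33.3% of the 39 genes, so the count itself is not a result about cell cycle genes. The rises were Mcm2 (0.85 ± 0.13, limma adjusted p = 0.000407), Mcm4 (0.54 ± 0.08, limma adjusted p = 0.000265), Mcm5 (0.36 ± 0.14, limma adjusted p = 0.0452) and Tyms (0.32 ± 0.11, limma adjusted p = 0.0302), which encodes thymidylate synthase. The direction of Tyms depends on the probe sets, since their mean was lower in the knockout by a difference that also passed (-0.12, limma adjusted p = 0.0353), and it was -0.07 with the spread term. Those of Mcm2 and Mcm4 held in all 16 fits without 1 array, that of Mcm5 was lost in 10 of the 16 (0.27 to 0.38), those without WT SAT pools 3 or 4, WT VAT pools 1 or 2, KO SAT pools 1, 3 or 4, or KO VAT pools 1, 2 or 3. That of Tyms was lost in 7 (0.24 to 0.31), those without WT SAT pool 4, WT VAT pools 1 or 2, KO SAT pools 1 or 3, or KO VAT pools 1 or 3. The largest falls were Hmmr (-0.55 ± 0.11), Cdc20 (-0.54 ± 0.14), Ube2c (-0.46 ± 0.11), Cdk1 (-0.45 ± 0.09), Tpx2 (-0.44 ± 0.14) and Ccne1 (-0.42 ± 0.10). Another probe set of Hmmr, near background, read 4.36 to 5.03 in WT VAT and 4.36 to 4.90 in KO VAT. A further one read 4.47 to 4.84 and 4.45 to 5.00. In SAT both were lower in the knockout, at 4.98 to 5.17 against 4.32 to 4.52 and 4.85 to 5.07 against 4.71 to 4.79. The fall of Hmmr in VAT was thus not seen in these probe sets. Cdc20 averaged 4.69 in KO SAT and 4.64 in KO VAT, under the background level of 4.78, so the size of its fall is uncertain. The other 7 that fell were Cenpe, Bub1b, Rrm2, Cdc45, Cenpf, Ccna2 and Cenpa, between -0.37 and -0.24. The other probe set of Rrm2, with a mean below background, did not fall in both depots. It read 4.25 to 4.66 in WT, 4.06 to 4.38 in KO SAT and 4.77 to 5.36 in KO VAT pools. Ccna2 (-0.26 to -0.20) lost its call without WT SAT pools 3 or 4, WT VAT pools 1 or 2, KO SAT pools 1, 2 or 4, or KO VAT pools 1, 2 or 3. Cenpa (-0.25 to -0.20) lost it without WT SAT pools 3 or 4, WT VAT pools 1 or 2, KO SAT pools 1, 3 or 4, or KO VAT pools 1 or 2. With the spread term Rrm2 alone passed (-0.43, limma adjusted p = 0.0256), and 9 of the 17 turned sign without passing, from -0.27 for Mcm5 to 0.19 for Tpx2. Mcm2 was then 0.54 (limma adjusted p = 0.0865) and Mcm4 0.37 (limma adjusted p = 0.0519). Without that term, the Mcm2 probe set used read 5.26 to 6.80 in WT pools and 6.46 to 7.55 in KO pools. Its second probe set read 4.75 to 5.35 in WT VAT and 5.28 to 5.63 in KO VAT, but 5.18 to 5.45 in WT SAT and 5.04 to 5.34 in KO SAT. In SAT it thus leaned lower in the knockout, with overlap. There the probe set used read 6.02 to 6.69 in WT and 6.46 to 6.96 in KO. The probe sets of Mcm2 therefore disagree in direction in SAT. In the comparison averaged over the depots, 27 of the 41 olfactory receptor genes fell, with a median of -0.26. So did 6 of 9 T cell markers, 6 of 9 B cell markers, 5 of 12 macrophage markers and 8 of 8 skeletal muscle genes, while 8 of 8 seminal vesicle genes rose, and their part in the result was not tested.

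Against the wild-type group of the other depot label, Mcm2 and Mcm4 were again higher in KO VAT. These comparisons share their samples with those above and add no independent support. In KO VAT against WT SAT, 3 genes rose and 7 fell, where 39.3% of all genes were called, 18.3% higher and 21.0% lower. These are 7.69% and 17.9% of the 39 genes, so this count is not a result about cell cycle genes either. Mcm2 rose by 1.06 ± 0.18 (limma adjusted p = 0.00104) and Mcm4 by 0.85 ± 0.11 (limma adjusted p = 0.000182), both within each day and in all 16 fits without 1 array. Mcm3 (mean 7.44 in KO VAT against 7.07 in WT SAT) and Mcm5 (8.25 against 7.81) did not pass here. With array spread as a term Mcm4 (0.65, limma adjusted p = 0.0061) was the 1 of the 10 calls that was kept, and Mcm2 was 0.71 (limma adjusted p = 0.0592). For Mcm2, WT SAT read 6.02, 6.23, 6.69 and 6.34, and for Mcm4 6.06, 5.87, 5.81 and 5.62, all below the KO VAT pools. The second probe set of Mcm2, however, read 5.18 to 5.45 in WT SAT and 5.28 to 5.63 in KO VAT, which overlap. Tyms rose by 0.63 ± 0.16 (limma adjusted p = 0.00954), but another of its 5 probe sets, near background, fell by 0.93 (limma over all probe sets, adjusted p = 0.00865), so its direction depends on the probe set. The falls were Cdc20 (-0.60 ± 0.19), Hmmr (-0.57), Cdk1 (-0.52), Bub1b (-0.50), Cenpe (-0.48), Ccne1 (-0.47) and Rrm2 (-0.27). Of these, Cdk1 alone kept its call in all 16 fits without 1 array, and 23 of the 41 olfactory receptor genes fell beside them (median -0.36), as did 10 of 12 macrophage markers, 6 of 9 T cell markers, 4 of 9 B cell markers and 8 of 8 skeletal muscle genes (median -1.68). Hmmr lost its call without WT SAT pool 4 (-0.48) or KO VAT pool 1 (-0.51), Cenpe without WT SAT pool 4 (-0.29) or KO VAT pools 1 (-0.44) or 3 (-0.40), and Ccne1 without WT SAT pool 4 (-0.35) or KO VAT pools 1 (-0.44), 2 (-0.44) or 3 (-0.45). Bub1b lost it without WT SAT pools 3 or 4 or KO VAT pools 1, 3 or 4 (-0.52 to -0.36), and Cdc20 without WT SAT pools 1, 3 or 4 or KO VAT pools 1, 2 or 3 (-0.61 to -0.52). Rrm2 lost it without WT SAT pools 2 or 4, WT VAT pool 2, KO SAT pools 1 or 3, or KO VAT pools 1, 2 or 4 (-0.27 to -0.20). The other probe set of Rrm2, with a mean below background, went the other way, at 4.40 to 4.66 in WT SAT and 4.77 to 5.36 in KO VAT. The count of 10 became 4 without WT SAT pool 4 or KO VAT pool 1, 6 without KO VAT pool 3 and 16 without WT VAT pool 1. The part of these markers and of array spread in these values was not tested.

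In KO SAT against WT VAT, 0 genes rose and 2 fell, where 6.89% of all genes were called, 4.71% higher and 2.18% lower. Ube2c fell by 0.55 between 6.11 to 7.17 in WT VAT and 5.77 to 6.23 in KO SAT, which overlap, and Rrm2 fell by 0.46 between 5.52 to 5.67 and 4.93 to 5.39, which do not. Rrm2 was no longer called once KO SAT pool 1 (-0.45), 3 (-0.45) or 4 (-0.41) was left out, and Ube2c without any of 12 arrays (-0.64 to -0.39), which include all pools of KO SAT and KO VAT, WT SAT pools 1 and 3 and WT VAT pools 1 and 2. The count of 2 moved to between 0 and 7 over the 16 fits, being 0 without KO SAT pools 1, 3 or 4, 6 with either WT SAT pool 4 or WT VAT pool 3 left out and 7 without WT VAT pool 4. Cdk1 (-0.38 ± 0.13), Ccne1 (-0.37 ± 0.14) and Hmmr (-0.52 ± 0.16) did not pass here.

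Some of these genes also differed between the days. On day 2 against day 1, over all groups, 1 gene was higher and 6 were lower, where 28.3% of all genes were called, 17.2% higher and 11.1% lower. These are 2.56% and 15.4% of the 39 genes, so the count itself is not a result about cell cycle genes. Mcm2 was higher by 0.48 ± 0.13 (limma adjusted p = 0.0188) and Mcm7 lower by 0.52 ± 0.11 (limma adjusted p = 0.00943). Mcm7, which the helicase needs in the same ring as Mcm2, thus went the other way; its values were 6.97 and 7.09 on day 1 and 6.40 and 6.82 on day 2 in WT SAT, and 6.70 and 6.95 against 6.31 and 6.30 in KO VAT. The other genes lower on day 2 were Tpx2 (-0.53 ± 0.14), Aurkb (-0.48 ± 0.11), Prc1 (-0.41 ± 0.12), Ccne1 (-0.33 ± 0.10) and Ube2c (-0.31). Olfactory receptor genes were lower on day 2 for 10 of 41 and higher for 1, and 8 of 12 macrophage markers were higher. With the spread term 0 of these 7 passed, and 1 other gene did. Ccne1 lost its call without WT SAT pool 3, WT VAT pools 2, 3 or 4, KO SAT pool 3 or KO VAT pool 3 (-0.33 to -0.29), and Ube2c without WT SAT pools 1 or 3, any WT VAT pool, KO SAT pools 2 or 4, or KO VAT pools 2, 3 or 4 (-0.33 to -0.23). The count was 12 without WT SAT pool 2 and 15 without WT SAT pool 4.

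Signals that drive macrophage division were looked at last. Of 11 such genes measured, 1 rose and 0 fell in KO SAT against WT SAT, Ccl2, a monocyte chemokine also linked to macrophage proliferation, at 0.74 ± 0.15 (limma adjusted p = 0.00307). In KO VAT against WT VAT Ccl2 fell by 0.71 ± 0.15 (limma adjusted p = 0.00672) and 0 rose. In KO VAT against KO SAT, 3 fell, Csf2rb (-0.72), Ccl2 (-0.70) and Csf1r, the receptor of the macrophage growth factor CSF1 (-0.60). Macrophage markers were lower there as well, with 5 of 12 fallen and 0 risen. In KO VAT against WT SAT, 2 signal genes rose, Csf2 (0.58) and Csf1 (0.48), and 3 fell, among them Csf2rb (-0.81) and Csf1r (-0.63). Averaged over the depots, 2 fell in the knockout, Csf2rb (-0.24) and Il4 (-0.15). On day 2 against day 1, 3 were higher, among them Csf2rb (0.48), and 1 was lower, Il13 (-0.28). All these counts stand beside the shares of all genes called that are given above for each comparison. Between the wild-type depots Ccl2 was higher in WT VAT than in WT SAT, by 0.75 ± 0.15 (limma adjusted p = 0.0124). It was not called against the wild-type group of the other depot label in either knockout group. Ccl2 was thus high in WT VAT and KO SAT, the groups in which Akr1c18 was low.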

How the data were processed

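The authors' deposited table holds log2 values of 45141 probe sets on 16 arrays, for which the submitters' processing notes name RMA and affy; versions are not given in the sources used here. RMA corrects background and normalizes between arrays, yet the deposited values still differ in spread between arrays, with interquartile ranges over probe sets from 2.01 to 2.63. Of the probe sets, 28898 were paired with 1 gene by the platform annotation and 551 with several, which were left out, as were 104 controls. Each of 17097 genes was read from its probe set of highest mean, and 22 of the 39 cell cycle genes had more than 1.

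Groups and days follow the labels. Linear models with group and day terms were fitted to all genes and 16 arrays with limma 3.58.1 (lmFit, eBayes) in R 4.3.3, giving 9 comparisons with Benjamini-Hochberg adjustment over all genes, and the model was tested on simulated data. Precision is limited by having 4 arrays a group. Pool numbers were not treated as pairs.

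The cell cycle genes and all other lists were chosen with earlier results of these data known. Every member that passed in a comparison is named, with up to 6 of smallest p per comparison in the alternatives and up to 4 of smallest p of each further list described. Alternatives tried were pool number as a block, dropping the day term, a fit within each day, a filter on dim genes, the mean of probe sets, centring, quantile normalization, array spread as a term, the compared groups alone and leaving out each array; 2 more were chosen after seeing the data, namely leaving out the 4 arrays of smallest spread and fitting all probe sets. Promoter windows came from the RefSeq table of GRCm38.p6.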

Additional observations from a re-analysis of the deposited data

Results flagged for a closer look

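Of 176 combinations of a gene and a group of 4 arrays, 5 had 1 array far from the other 3, whereas chance marks about 1 in 20. Ccna2 read 5.53 in KO VAT pool 4 against 5.25 to 5.29 in the other pools. Kif20a read 5.59 in WT VAT pool 3 against 6.13 to 6.17. Ect2 read 3.41 in WT VAT pool 1 against 3.27 to 3.29, below background. Svs4, the seminal vesicle gene, read 7.30 in WT SAT pool 2 against 3.79 to 4.05, and 3.88 in WT VAT pool 1 against 3.76 to 3.78.

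The knockout effect differed between the depots as labelled, by the interaction term in limma, for Mcm5 (1.51, adjusted p = 0.00466), Mcm4 (0.82, adjusted p = 0.00547) and Rrm2 (0.64, adjusted p = 0.015).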

How the results depend on the processing

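The number of called genes (of 39) moved by over 1.5 times as follows, and the cause was not tested. In WT VAT minus WT SAT it was 1 with day 1 alone, 10 with day 2 alone, 1 with the mean of probe sets, 2 with quantile normalization, 2 with the spread term and 3 without the 4 arrays of smallest spread. In KO VAT minus KO SAT it was 1 with day 1 alone, 0 with day 2 alone, and 5 each with the mean of probe sets, the spread term, the compared groups alone and without the 4 arrays. In KO SAT minus WT SAT it was 6 without the day term, 1 with day 1 alone, 20 with the mean of probe sets and 3 with the spread term. In KO VAT minus WT VAT it was 13 with day 1 alone and 2 with day 2 alone. Averaged over depots it was 8 with day 2 alone, 1 with the spread term and 9 without the 4 arrays. For the depot difference in knockout effect it was 6 with day 2 alone, 6 with the mean of probe sets, 5 with quantile normalization, 5 with the spread term and 9 without the 4 arrays. In KO SAT minus WT VAT it was 10 with day 1 alone, 0 without the day term, with day 2 alone or with the compared groups alone, and 1 with quantile normalization, the spread term, the 4 arrays left out or the replicate block. In KO VAT minus WT SAT it was 6 without the day term, 2 with day 1 alone and 1 with the spread term. Between days it was 4 with quantile normalization and 1 with the spread term. Median changes moved to 0.04 (WT VAT minus WT SAT, day 1 alone), 0.02 and 0.07 (KO SAT and KO VAT minus WT SAT, spread term) and 0.41 (depot difference, day 2 alone).

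Leaving out 1 array gave 0 to 5 called genes in WT VAT minus WT SAT, 1 to 4 in KO VAT minus KO SAT, 5 to 17 in KO SAT minus WT SAT, 3 to 7 in KO VAT minus WT VAT, 13 to 20 averaged over depots, 3 to 8 for the depot difference, 0 to 7 in KO SAT minus WT VAT, 4 to 16 in KO VAT minus WT SAT and 5 to 15 between days. The check of pool numbers as pairs did not decide the question. Of 24 pairs of arrays with 1 number in different groups, 18 correlated over 0.1 with group means removed and 5 with day means removed as well (-0.674 to 0.535). With 4 arrays a group, the values left after removing means are tied to one another. The check therefore cannot show whether pools of 1 number share animals. The replicate block gave 11 calls in KO SAT minus WT SAT, 4 in KO VAT minus WT VAT and 3 for the depot difference.

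Signs turned with the spread term for Cdc45 (0.02), Cenpe (0.13), Cdc20 (0.06), Tpx2 (0.16) and Prc1 (0.03) in KO SAT minus WT SAT, for Ccna2 (0.09), Mcm5 (-0.27), Cdc45 (0.01), Tyms (-0.07), Cenpa (0.06), Cenpe (0.08), Cenpf (0.01), Bub1b (0.04) and Tpx2 (0.19) averaged over depots, for Cenpe (0.04) in KO VAT minus WT SAT and for Ube2c (0.01) between days. With the mean of probe sets they turned for Tyms (-0.12 averaged, which passed, -0.03 between wild-type depots, -0.09 in KO VAT minus WT SAT) and Rrm2 (0.09, KO VAT minus WT SAT), and with day 1 alone for Tyms between wild-type depots (-0.02). Of 59 called results 13 held, 30 were lost and 16 turned with the spread term, and 59 held with all probe sets fitted. With quantile normalization 16 of 59 were lost, including 4 of the 13 falls in KO SAT minus WT SAT, without the 4 arrays of smallest spread 20, with centring 10, and with the mean of probe sets 7 lost and 3 turned. Of the 52 that could be refitted, 27 were lost with day 1 alone, 24 with day 2 alone, 18 without the day term and 7 with the replicate block. The filter on dim genes raised the median of all genes by 0.12 in KO SAT minus WT SAT and by 0.11 between days. Signal over background limits 14 of the 39 genes, which were not above it in every group.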
